A study of Mus musculus with 2 samples.

Results

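The replication-dependent histone genes supply the histones that package newly copied DNA. The genes were taken by symbol, from mouse RefSeq annotation of assembly GRCm38.p6. Symbols starting with H2ac, H2bc, H3c or H4c, the symbols H1f1 to H1f5, and former symbols starting with Hist1h, Hist2h, Hist3h or Hist4h were accepted. The annotation held 71 such genes, of which 7 were found only by the former symbol, and 47 of them had at least 1 probe among the 20658 named genes of the array. No measured value chose a single gene, but the family as a whole was chosen by a log2 ratio already known from these arrays, that of H2bc18 (-1.32). The values of the family are therefore given as a description, without a test.

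A nucleosome wraps DNA around the core histones H2A, H2B, H3 and H4, and the linker histone H1 binds the DNA that enters and leaves it. Each is encoded by several genes that lie in clusters, near-identical for the core histones. They are transcribed mainly in S phase, and their mRNAs end in a stem-loop bound by the stem-loop binding protein SLBP in place of a poly(A) tail. In the growing ovary of a young mouse, the granulosa cells of follicles are the main dividing cells, whereas the oocytes are arrested in meiosis.

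The study compared ovaries of 2-week-old mice, cut lengthwise into symmetrical pieces and kept for 3 days on culture inserts, after treatment with tachykinin receptor (TKR) ligands. The TKR agonists group received [Sar9, Met(O2)11]-SP for the receptor TACR1, GR-64349 for TACR2 and the substance P analog senktide for TACR3. The TKR antagonists group received an antagonist of TACR1, GR-94800 for TACR2 and SB218795 for TACR3, and every ligand was used at 1 μM. Total RNA of each group was hybridised to 1 single-colour oligonucleotide array, whose spots each hold many copies of a probe sequence. The strain and the number of ovaries behind each RNA are not given in the sources used here, and untreated ovaries were not analysed here. As a single array stands for each group, the variation among ovaries is unknown and no p-value is given. In whole pieces of ovary, fewer cells of a type and less RNA per cell cannot be told apart.

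Signals are given in units of the scanner software, before any scaling between the arrays. Ratios are of agonists over antagonists on the log2 scale, after every signal was divided by the 75th percentile over all non-control spots of the array. That percentile was 672 in the agonist culture and 569 in the antagonist culture. A spot was detected where the software marked it as well above background, as it did for 65.4% of 59305 spots with the agonists and 61.6% with the antagonists, and 0 spots were saturated. The 15258 named genes detected on both arrays had a median log2 ratio of -0.10 and an SD of 0.48, with lower and upper quartiles of -0.27 and 0.15, and they are the named genes against which the family is set. The error beside a single ratio is the software's error of a spot, since every histone probe had 1 spot. The median SD between the spots of the 285 probes printed 10 times was 0.07.

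Most histone genes were detected on both arrays, and nearly all of them gave lower values with the agonists than with the antagonists. Labelling started from poly(A) tails, which the stem-loop mRNAs lack, and how much of these mRNAs the signals cover was not tested. Of the 47 genes with a probe, 43 were detected on both arrays, against 15258 of the 20658 named genes. H2bc23 was detected with the antagonists only, and H1f3, H2ac6 and H2ac8 were detected on neither. By class, the genes detected on both arrays were 5 of 6 for H1, 12 of 14 for H2A, 10 of 11 for H2B, 7 of 7 for H3 and 9 of 9 for H4. Signals of the 43 genes ran from 26.0 to 184970 with the agonists and from 22.2 to 218724 with the antagonists.

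The 43 genes had a median log2 ratio of -0.54, which is 1.45-fold lower with the agonists, with an SD of 0.32 across genes and quartiles at -0.68 and -0.41. The ratio was below 0 for 40 of 43 genes, against 62.3% of all named genes, and it was below the all-gene median for 38. At least 1.5-fold lower values were found for 18 of 43, against 4.28% of all named genes, and at least 2-fold lower values for 2, against 0.57%. These 2 were H1f5 and H2bc18. As H2bc18 led to the choice of the family, the count of 2 is not separate evidence, and H2bc18 is also among the 40, the 38 and the 18. No histone gene was at least 1.5-fold higher or at least 2-fold higher (0 of 43 each), whereas 9.26% and 4.01% of all named genes were. Of all named genes, 5.46% lay below the histone median. These counts describe a pair of arrays, and genes whose probes bind the same transcripts are not separate measurements.

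**Figure D1:**
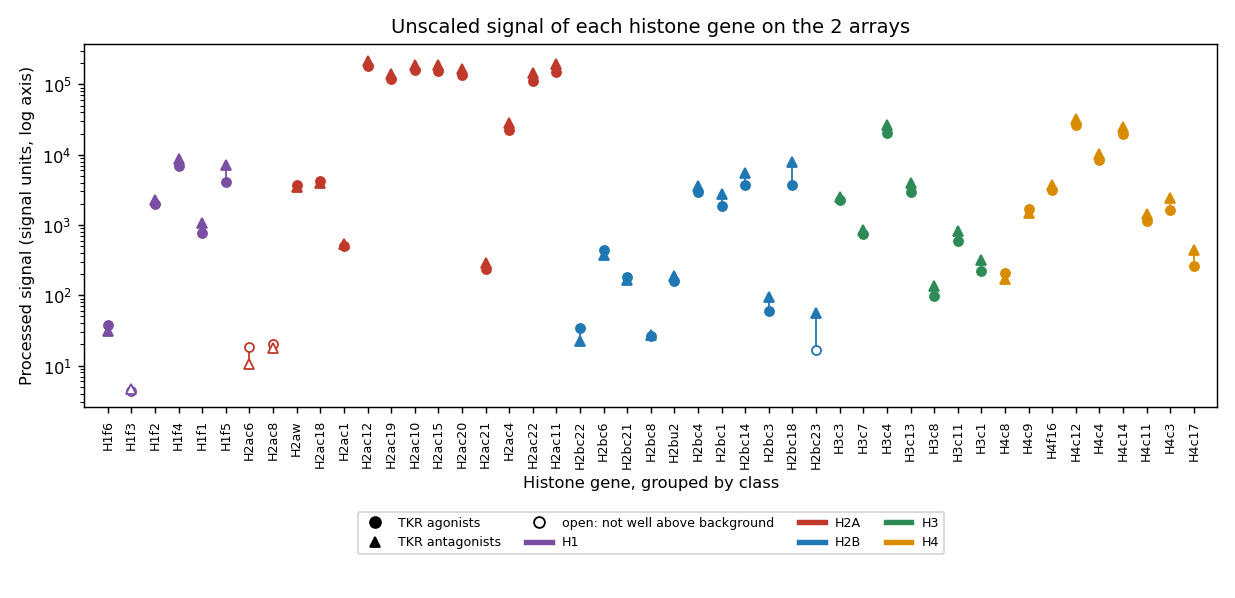
Unscaled processed signal (signal units, log axis) of the 47 histone genes with a probe, grouped by class, with circles for the TKR agonists, triangles for the TKR antagonists and open symbols where the probe was not well above background. Most triangles lie above their circles although the antagonist array had the lower 75th percentile, and the distance is greatest for H2bc18 among the genes detected on both arrays. Levels of different genes come from different probes and are not to be set against each other.

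The size of the shift depended on scaling. Genes at least 1.5-fold lower numbered 5 with no scaling, 4 on spike-in probes and 11 each with quantile normalization, loess and the authors' table, when 1.29%, 1.12%, 4.004%, 3.01% and 2.52% of all named genes were that low. With unscaled signals the histone genes had a median of -0.30 and all named genes one of 0.15, and scaling on 8 spike-in probes gave -0.26 and 0.18. A constant per array moves all genes alike, so such scalings leave the distance between the medians at -0.44 by construction. With quantile normalization, loess and normexp, which do not, it was -0.38, -0.40 and -0.39. Values below are best read against the all-gene median.

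Histone promoters carry short elements that differ between the classes, so examples are printed here. They belong to the genes with the lowest ratio in each class, among detected genes with a promoter entry. That of H2bc22, the gene with the highest ratio, is added. H3c1 was marginally lower than H3c11 but had no entry. The sequences are the 150 bases before the transcription start in the RefSeq promoter table of GRCm38.p6, written 5′ to 3′ on the strand of the gene. Capitals mark exact matches on either strand to the CCAAT box (CCAAT), the TATA box (TATAAA), the octamer (ATTTGCAT) and the H1 AC box (AAACACA). In these windows no matches overlapped.
H1f5 (chr13:21780626-21780775, minus strand): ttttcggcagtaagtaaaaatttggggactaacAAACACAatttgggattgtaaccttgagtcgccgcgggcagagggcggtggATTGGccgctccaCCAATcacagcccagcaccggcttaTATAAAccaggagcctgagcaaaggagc
H2ac11 (chr13:22042950-22043099, minus strand): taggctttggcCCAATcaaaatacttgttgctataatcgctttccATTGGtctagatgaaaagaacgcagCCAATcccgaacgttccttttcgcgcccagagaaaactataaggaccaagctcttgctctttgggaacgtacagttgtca
H2bc18 (chr3:96269550-96269699, plus strand): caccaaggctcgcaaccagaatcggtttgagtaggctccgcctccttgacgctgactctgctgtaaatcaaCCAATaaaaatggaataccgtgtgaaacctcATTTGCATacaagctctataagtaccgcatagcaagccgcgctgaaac
H2bc22 (chr13:21787338-21787487, plus strand): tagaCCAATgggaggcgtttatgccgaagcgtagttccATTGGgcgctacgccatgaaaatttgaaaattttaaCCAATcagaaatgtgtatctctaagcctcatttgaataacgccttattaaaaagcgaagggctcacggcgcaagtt
H3c11 (chr13:21783398-21783547, minus strand): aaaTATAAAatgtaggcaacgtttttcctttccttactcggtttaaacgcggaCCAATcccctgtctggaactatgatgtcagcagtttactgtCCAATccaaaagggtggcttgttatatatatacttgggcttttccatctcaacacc
H4c17 (chr13:21811596-21811745, plus strand): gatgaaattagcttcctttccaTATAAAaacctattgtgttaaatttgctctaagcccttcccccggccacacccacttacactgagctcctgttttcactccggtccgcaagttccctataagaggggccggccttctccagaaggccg

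In H2bc18 the octamer began 48 bases and the CCAAT box 79 bases before the start. H1f5 held an AC box 117 bases, CCAAT boxes 66 and 53 bases and a TATA box 28 bases upstream. H2bc22 held 3 CCAAT boxes and no octamer in these letters. The H4c17 window held the letters TATAAA at 128 bases and no other match, and whether they act as a TATA box was not tested.

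Across the family, 62 of the 71 genes had an entry in that table, with 63 promoters in all, and 250 bases upstream were searched. The CCAAT box was present in 52 of 63 (82.5%), against 33.8% of all 32851 promoters, and it was found in every promoter of H1 (6 of 6), H2A (18 of 18) and H2B (17 of 17), in 8 of 10 of H3 and in 3 of 12 of H4. TATAAA was present in 29 of 63, against 12.4% of all promoters. The octamer, a binding sequence of OCT1 (POU2F1) known for H2B promoters, was present in 7 of 17 H2B and 7 of 18 H2A promoters, against 1.60% of all promoters, and in none of H1, H3 or H4 (0 of 28 promoters). The AC box was present in 5 of 6 H1, 2 of 18 H2A and 2 of 17 H2B promoters, in none of H3 or H4, and in 6.25% of all promoters.

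Among H2B genes with a promoter entry, those with the octamer in every entry, H2bc18, H2bc3, H2bc14, H2bc1 and H2bc8, had log2 ratios from -1.32 to -0.30. H2bc22 and H2bu2, without it, had 0.39 and -0.46. H2bc6 had an entry with the octamer and an entry without, and its ratio was -0.01. Of these genes, H2bc18 led to the choice of the family, and H2bc3, H2bc8 and H2bc22 had low signals. Whether the octamer goes with the ratio was not tested. The 5 H2A genes with an octamer had a median of -0.48 and the 7 without one -0.52. These values describe matches of letters, and binding was not measured.

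The linker histones H1 compact the fibre between nucleosomes. H1f5 (NM_020034, formerly Hist1h1b), a linker histone of somatic cells, gave 4135 in the agonist culture and 7026 in the antagonist culture. The log2 ratio was -1.01 ± 0.20 (software error), or 2.01-fold lower. H1f1 gave 759 and 1077, a ratio of -0.75. H1f4, the brightest H1 probe, gave 6981 and 8692, a ratio of -0.56, and H1f2 gave -0.47. The linker genes of somatic cells that were detected were thus all below the all-gene median. H1f6, the linker histone of the testis, was close to background with 37.3 and 31.4, and its ratio of 0.01 ± 0.32 was within the error of a spot. H1f3 was not well above background on either array (4.38 and 4.58).

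H2A pairs with H2B to form the outer dimers of the nucleosome. In the H2A class 12 of 12 ratios were below 0, against 62.3% of all named genes. The median was -0.52, and the range was -0.61 to -0.13 with an SD of 0.17. H2ac11 (NM_178186) gave 148897 and 192434, a ratio of -0.61. H2ac22 gave 111109 and 143575, also -0.61, and H2ac4 gave 22317 and 28484, a ratio of -0.59. These were the only H2A genes at least 1.5-fold lower, and none of the 3 passed that fold without scaling, with quantile, loess or spike-in scaling, in the authors' table or with normexp. H2ac12, with the brightest probe of the family, gave 184970 and 218724, a ratio of -0.48.

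Several H2A probes were very bright. Those for 7 H2A genes (H2ac10, H2ac11, H2ac12, H2ac15, H2ac19, H2ac20 and H2ac22) exceeded 100000 on both arrays, and their ratios lay between -0.61 and -0.48. The genes encode near-identical proteins, probe sequences were not analysed here, and how far the probes bind each other's transcripts was not tested. Counted as 1 signal, they left a family median of -0.54 over 37 values. Saturation was not marked for any of them, and the 490 other probes over 100000 on both arrays had a median ratio of -0.18 and a range of -0.55 to 0.20. As low as the highest of the 7 were 4 of the 490, which were H2aj (-0.49), itself an H2A variant, Tuba1b (-0.53), an alpha tubulin, and 2 probes without a name here (-0.54 and -0.55).

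Dimmer H2A genes were spread more widely. H2ac21 gave 236 and 291, a ratio of -0.55. H2ac1, a germ cell H2A also known as TH2A, gave 505 and 540, a ratio of -0.34. H2ac18 (4179 and 3956, -0.16) and H2aw (3748 and 3463, -0.13) lay near the all-gene median, and both ratios changed sign without scaling and with spike-in scaling, H2aw also with loess. A second probe of H2ac15 gave -0.65 beside -0.52. H2ac6 (18.2 and 10.6) and H2ac8 (20.5 and 17.5) were not well above background.

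H2B was the most varied class, with ratios from -1.32 to 0.39 and an SD of 0.50, and it held both ends of the family. H2bc18 (NM_175666, formerly Hist2h2bb) gave 3744 in the agonist culture and 7925 in the antagonist culture. The log2 ratio was -1.32 ± 0.20, or 2.50-fold lower. It ranked 33rd from the lowest of 15258 genes, and over all settings its ratio ran from -1.39 to -1.05. As the gene that led to the choice of the family, it does not stand as separate evidence. H2bc14 gave 3658 and 5524, a ratio of -0.84. H2bc1, the germ cell H2B known as TH2B, gave 1848 and 2753, a ratio of -0.82. H2bc3 gave a ratio of -0.89 ± 0.24 at low signals of 60.3 and 94.3.

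The remaining H2B genes detected on both arrays lay closer to 0. H2bc4 gave 2910 and 3549, a ratio of -0.53, and H2bu2 gave 159 and 185, a ratio of -0.46. H2bc8 (26.0 and 27.1, -0.30 ± 0.38) was within the error of a spot. H2bc21, an H2B best known from olfactory neurons, gave 183 and 167, a ratio of -0.11, and H2bc6 gave 437 and 373, a ratio of -0.01; both changed sign under some scalings. H2bc22 had the highest ratio of the family, 0.39 ± 0.36, at low signals of 34.5 and 22.2, and it was below 0 with normexp background correction. H2bc23 gave 16.7 with the agonists, not well above background, and 56.4 with the antagonists, which is at least 3.68-fold lower with the agonists on the scaled values.

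H3 forms with H4 the central tetramer of the nucleosome and carries many of its modified residues. The H3 class had the lowest median, -0.67, with a narrow range of -0.73 to -0.40. In it 7 of 7 genes were below 0 and 5 at least 1.5-fold lower, against 62.3% and 4.28% of all named genes. No H3 gene was that low without scaling or with spike-in scaling, where the lowest, H3c1, gave -0.49 and -0.46. H3c1 gave 223 and 314 and H3c11 gave 595 and 835, each a ratio of -0.73. H3c8 gave 99.0 and 135, a ratio of -0.69. H3c13 gave 2963 and 3979, a ratio of -0.67. H3c4, the brightest, gave 20069 and 26061, a ratio of -0.62, close to the dim H3c1 and H3c8 in the main setting. With quantile normalization H3c1 and H3c8 gave -0.76 and -0.73, and H3c4 gave -0.49. H3c7 (738 and 836, -0.42) and H3c3 (2263 and 2532, -0.40) were the highest of the class, still more than 0.3 below the all-gene median.

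H4 genes, which encode the same protein, had a median of -0.54 and 8 of 9 ratios below 0, against 62.3% of all named genes. H4c17 (NM_001195421) gave 259 and 439, a fold of 1.999 lower and just short of 2, so it counted as 2-fold lower after scaling on the median or on quantiles. H4c3 gave 1639 and 2389, a ratio of -0.79. H4c11 gave 1123 and 1447, a ratio of -0.61. H4c14 (19522 and 24788, -0.59), H4c4 (8338 and 10265, -0.54) and H4c12, the brightest (26598 and 32132, -0.51), lay together at the middle of the class. H4f16 gave 3138 and 3705, a ratio of -0.48.

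For H4 the probe chosen mattered. H4c9 gave 1713 and 1479 with its brighter probe, a ratio of -0.03, and 582 and 796 with its dimmer probe, a ratio of -0.69, so that the probes differed by 0.66. The second probes of H4c12 (-0.66) and H4c14 (-0.62) were within 0.15 of the first, and that of H4f16 was not well above background. H4c8 gave 207 and 171, a ratio of 0.03, the only H4 ratio above 0, and it was below 0 after scaling on the median.

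**Figure D2:**
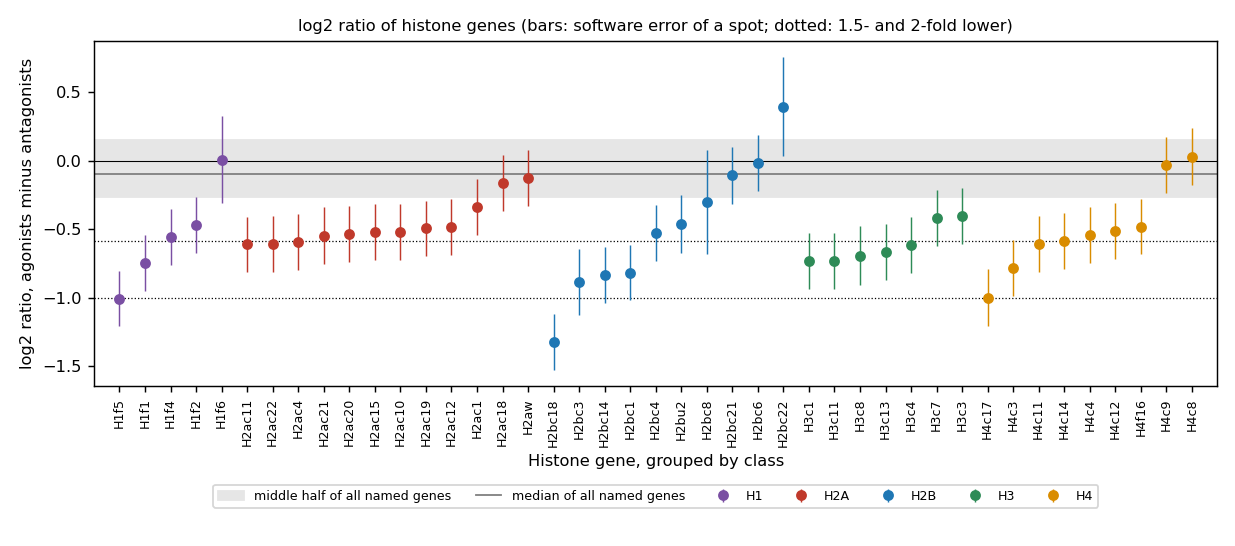
log2 ratio, agonists minus antagonists, of the 43 histone genes detected on both arrays, grouped by class, with bars for the software error of a spot, a grey band between the quartiles of all named genes, and dotted lines at 1.5-fold and 2-fold lower. Most genes lie below the band, H2bc18 is lowest at -1.32, and H2bc22 is highest at 0.39. The ratios are those scaled on the 75th percentile, and 8 genes with ratios between -0.16 and 0.39 change sign under another scaling or background correction.

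Many copies could not be separated by name. For 19 of the 47 genes with a probe, among them all 7 of H3 and all 9 of H4, the RefSeq entry named other members of the family, and for 28 it named none. Without the 19 genes, 24 genes detected on both arrays remained, with a median of -0.53, 22 below 0 and 9 at least 1.5-fold lower. The entries named no partner for any H2A gene, so the 24 include all detected H2A genes, also those with the very bright probes. Leaving out the 19 therefore does not remove every probe that may bind transcripts of other members. The setting without the 19 left no H3 or H4 gene.

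The large gene clusters had like medians. The Hist1 cluster on chromosome 13 had 32 genes with a median of -0.55, and the Hist2 cluster on chromosome 3 had 8 genes with a median of -0.54. The genes H2bu2 (-0.46) and H2aw (-0.13) represented Hist3 on chromosome 11, and H4f16 (-0.48) represented Hist4 on chromosome 6. Among 25 pairs of measured genes that follow each other in the annotation, 10 differed by less than 0.2. The share among pairs that are not neighbours was not computed, so the count does not tell whether neighbours are more alike. H3c1, H1f1 and H2bc1 lie next to each other and gave -0.73, -0.75 and -0.82. Other neighbours were far apart, such as H2bc18 (-1.32) beside H3c13 (-0.67), and H2bc22 (0.39) beside H2ac22 (-0.61).

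Genes that make and process histone mRNAs were near the all-gene median. Of 16 listed, 15 were detected on both arrays, 13 were below 0 and 0 were past 1.5-fold. Of all named genes, 62.3% were below 0, 4.28% at least 1.5-fold lower and 9.26% at least 1.5-fold higher. The list had a median of -0.18 and a range of -0.45 to 0.34. Relative to the all-gene median, its median was between -0.09 and -0.04 over 8 scalings and background corrections. The list median itself was above 0 under some of them. Slbp gave 991 and 1042, a ratio of -0.31, and Npat, the transcriptional coactivator of histone genes, was not detected. The brightest were Ncbp3 (-0.15), a cap-binding protein, and Lsm10 (-0.18), a subunit of the U7 particle that cleaves histone pre-mRNA.

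Variant histones, which are made outside S phase as well, mostly from mRNAs with poly(A) tails, had values close to those of the family. All 11 were detected and below 0, and 4 were at least 1.5-fold lower, against 62.3% and 4.28% of all named genes. The median was -0.53, with a range of -0.96 to -0.08. H1f10 gave 259 and 425, a ratio of -0.96, and H1f0 gave 258 and 401, a ratio of -0.88; both are linker histones. Cenpa, the H3 variant of centromeres, gave 1110 and 1533, a ratio of -0.71. H3f3b, which encodes H3.3, gave 22539 and 29010, a ratio of -0.61, whereas H3f3a, which encodes the same protein, gave -0.25. H2az1 gave -0.57.

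Genes of DNA replication also gave mostly negative ratios. Of 23 listed genes of S phase, 23 were detected, 22 were below 0 and 5 were at least 1.5-fold lower. Among all named genes, 62.3% were below 0 and 4.28% at least 1.5-fold lower. The S-phase genes had a median of -0.40 and a range of -1.21 to 0.06. Ccne1, the cyclin E that drives entry into S phase, gave 903 and 1764, a ratio of -1.21. Rrm2, a subunit of ribonucleotide reductase, gave -0.80, the helicase subunit Mcm5 -0.62 and the sliding clamp Pcna -0.59. Tyms, which makes thymidylate, gave 0.06. Histone chaperones, which carry histones to DNA, were nearer to the all-gene median, with 11 of 13 below 0, 1 at least 1.5-fold lower (Chaf1b, -0.63, a subunit of CAF-1) and a median of -0.26. Asf1b gave -0.57 and Asf1a 0.31. Relative to the all-gene median, the S-phase median was between -0.31 and -0.23 and the chaperone median between -0.16 and -0.09 over the 8 settings, and the chaperone median itself was above 0 in some.

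Histones of germ cells other than TH2A and TH2B were few. H1f8, the linker histone of oocytes, gave 58075 and 49223, a ratio of -0.00. H1f7 and H2al1m were detected with the agonists only. Of the 9 genes listed, 6 had a probe, 4 were detected on both arrays, and their median of -0.17 includes H1f6, H2bc1 and H2ac1, which are members of the family.

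**Figure D3:**
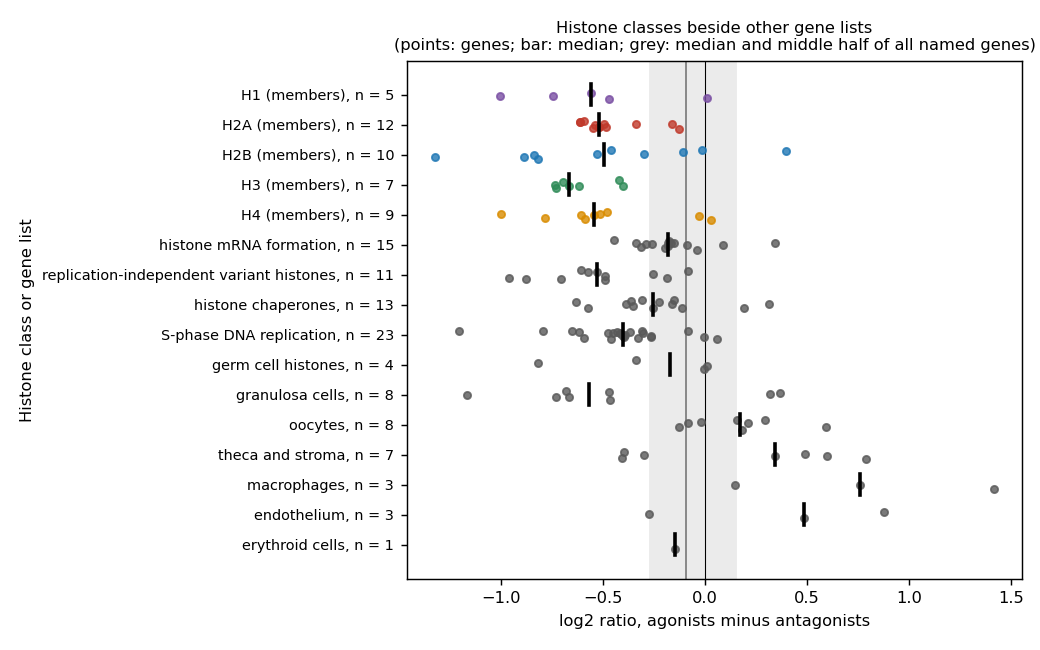
log2 ratio, agonists minus antagonists, of each gene detected on both arrays (points) in the histone classes, related gene lists and cell type marker lists, with a bar at the median of each and a grey band between the quartiles of all named genes. The class medians lie between -0.67 and -0.50, near those of the variant histones (-0.53) and granulosa markers (-0.57), whereas the medians of the oocyte, theca and stroma, macrophage and endothelium markers lie above 0. The signs of the medians for histone mRNA formation, chaperones, germ cell histones and erythroid cells change with scaling.

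Markers of granulosa cells had ratios on the same side of 0 as the histone genes, and the medians of the other main cell types lay on the opposite side; their part in the result was not tested. Granulosa cell markers had a median of -0.57, with 6 of 8 below 0, 4 at least 1.5-fold lower (Inhbb -1.17, Fshr -0.73, Inha -0.68 and Amh -0.67) and summed signals of 75448 (agonists) and 90629 (antagonists). Foxl2, also a granulosa marker, gave 0.32. Among all named genes, 62.3% were below 0 and 4.28% at least 1.5-fold lower. Oocyte markers had a median of 0.17, with 3 of 8 below 0 and summed signals of 142054 and 125198. Figla (0.59) was the only oocyte marker at least 1.5-fold higher, against 9.26% of all named genes. Theca and stroma markers had a median of 0.34, with 3 of 7 below 0 and sums of 187499 and 136578. This list was split, with Cyp17a1 (-0.41), Star (-0.40) and Lum (-0.30) on the side of the histone genes. Cyp11a1 (0.79), Pdgfra (0.60), Col1a1 (0.49) and Dcn (0.34) were above 0. Every listed marker of granulosa cells and oocytes was detected on both arrays, as were those of theca and stroma.

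The other lists were small. Macrophage markers (3 of 5 detected on both arrays, median 0.76, sums 6763 and 4793) and endothelium markers (3 of 4, median 0.48) had medians above 0, though Kdr, the endothelial receptor of VEGF, gave 15076 and 15399, a ratio of -0.27. At least 1.5-fold higher were Adgre1 (1.42) and Lyz2 (0.76) of macrophages and Cdh5 (0.88) of endothelium, against 9.26% of all named genes. Ptprc of macrophages and Tek of endothelium were detected with the agonists only. Of the 4 erythroid markers, 1 was detected on both arrays, and their summed signal was 114 and 89.0.

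**Figure D4:**
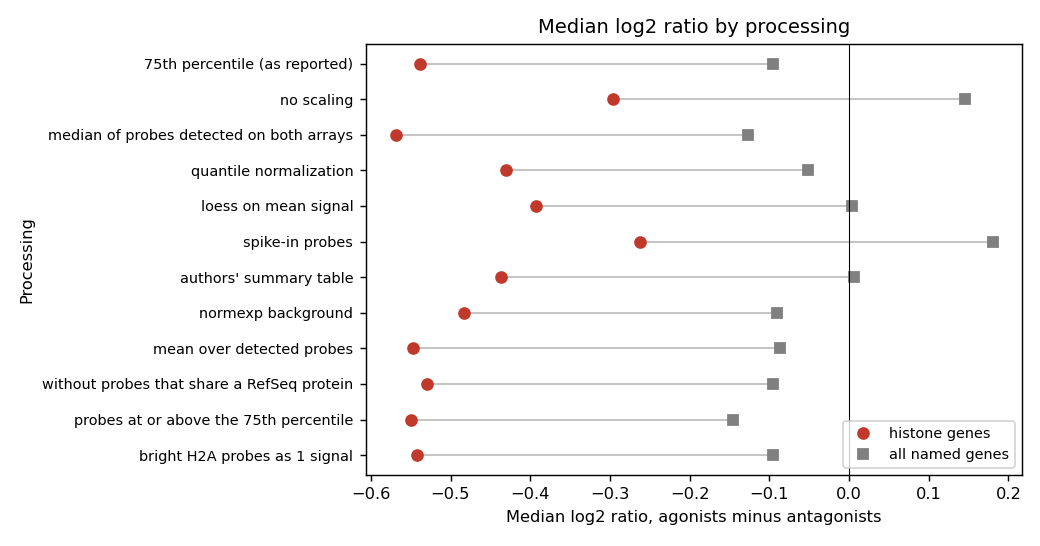
Median log2 ratio, agonists minus antagonists, of the histone genes (circles) and of all named genes (squares) under the processing used for the reported values and 11 alternatives, 1 per line. The circles lie between -0.57 and -0.26 and are always to the left of the squares, at a distance between -0.46 and -0.38, which is fixed by construction where only a constant per array differs.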

How the data were processed

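RNA of cultured ovaries was labelled with Cy3 using the Low Input Quick Amp kit and hybridised to Agilent SurePrint G3 Mouse GE 8x60K arrays, designed on mm9, with both arrays on the same slide. The kit primes from poly(A) tails, which stem-loop histone mRNAs lack, and how fully these were labelled was not tested. The authors deposited the linear intensity of each spot after background correction by Agilent Feature Extraction 10.10.1.1, without scaling between arrays. Their deposited summary table equals these intensities times a constant per array (largest relative deviation 4.97e-10).

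Control spots were left out. A probe was detected where over 50% of its spots were well above background, and a gene was represented by its brightest detected probe. Probes were named through transcript accessions in RefSeq of GRCm38.p6 (27230 of 55674 probes). A probe detected on 1 array has a lower bound, set against the lowest signal well above background on the other (18.1 and 19.9). Genes of the family named are those past 1.5-fold, the brightest of a class, those on 1 array, and the rest by values or range. Of the other lists, not every gene past 1.5-fold, on 1 array or among the brightest is named. Slbp, Npat, H3f3a, H2az1, Tyms, Asf1a, Asf1b, H1f8, Foxl2, Tuba1b, Cyp17a1, Star, Lum and Col1a1 were named after their values were seen. The values of 1 listed gene are not reported here. Members and lists were chosen with earlier results of these data known. No test was made, because there is 1 array per group, and precision is limited by that number. Alternatives were other scalings (none, median, quantile, loess with span 0.3, spike-in), the authors' table, normexp (offset 50) on the median spot signal, and other probe and detection rules. Scripts ran in Python 3.11.15 with numpy 2.4.6, pandas 2.3.3 and matplotlib 3.10.9, and in R 4.3.3 with limma 3.58.1 for normexp, quantile and loess; the steps from spots to counts were first tested on simulated data.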

Additional observations from a re-analysis of the deposited data

How the results depend on the processing

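The median log2 ratio of the histone genes was below 0 under every alternative run and moved by more than the SD between spots under 5 of them, to -0.30 without scaling, -0.43 with quantile normalization, -0.39 with loess, -0.26 on spike-in probes and -0.44 in the authors' summary table. Genes at least 1.5-fold lower numbered 18 in the main setting, 5 without scaling, 4 with spike-in scaling, 11 each with quantile normalization, loess and the authors' table, and 9 without genes whose RefSeq entry names other members. Without scaling and with spike-in scaling, 1.29% and 1.12% of all named genes were that low. Genes at least 2-fold lower fell from 2 to 1, H2bc18, without scaling and with loess, spike-in scaling, the authors' table and normexp. H2bc22 was the 1 gene at least 1.5-fold higher without scaling and with spike-in scaling. Genes detected on both arrays numbered 24 without the genes whose entry names others. Of 487 single values of genes and classes under the alternatives, 372 moved by less than their error and 115 moved by more. Many of the 372 could not move, as the rules on probes leave the value of most genes unchanged by construction. Scaling on the median shifts every gene by the same small amount. The 372 therefore do not measure robustness. Without scaling and with spike-in scaling, most genes moved by more than their error. H1f6, H2ac18, H2aw, H2bc21, H2bc22, H2bc6, H4c8 and H4c9, with main ratios between -0.16 and 0.39, changed sign under at least 1 alternative; the cause was not tested. Counting the bright H2A probes as 1 signal was chosen after seeing the data. No paired analysis was possible because each group has 1 array and no test was made. No replicate could be left out.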
